A study of Mus musculus with 12 samples.

Results

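The axon guidance ligands and receptors are described here across 4 sorted cell populations of mouse glioblastoma (GBM). A gene was taken as a member if its symbol belonged to the class 3 to 7 semaphorins (*Sema*), plexins (*Plxn*), neuropilins (*Nrp*), ephrins (*Efn*), Eph receptors (*Eph*), Slits, Robos, netrins (*Ntn*) or the netrin receptors *Unc5* and *Dcc*. The rule used symbols only, but genes had deposited values only where they passed the authors' filter on expression level. The families were chosen with earlier results of these data known. Of the 18180 genes with deposited values, 60 were members. They were 31 genes of the semaphorin system (20 semaphorins, 9 plexins and 2 neuropilins), 16 of the ephrin system (6 ephrins and 10 Eph receptors), 6 of the Slit system (3 Slits and 3 Robos) and 7 of the netrin system (3 netrins, 3 *Unc5* receptors and *Dcc*), or 32 ligands and 28 receptors in all. RefSeq lists 69 such symbols in the mouse, and the other 9 (*Efna3*, *Efna4*, *Epha1*, *Epha10*, *Epha6*, *Epha8*, *Ntn5*, *Robo3* and *Unc5d*) were not analysed here. Of the 60 members, 52 had more than 1 CPM (the count of a gene scaled to the size of its library) in every library, and the least detected, *Slit3*, did so in 6 of 12.

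The tumors were end-stage GBMs of conditional mice of mixed strain (SJL, Balb/cJ, FVBN/J, 129S4 and C57Bl/6J). Cre delivered by an intracranial lentivirus switched on human EGFR and luciferase, and the loss of *Cdkn2a* was constitutive. All 4 populations carried those alleles, and all were sorted as EGFR+ cells. The 3 tumors are called T3, T4 and T5, and the EGFR+ cells of each were divided with an antibody to PDGFRA into PDGFRA+ and PDGFRA- cells, and with an antibody to Galectin-1 into GAL1+ and GAL1- cells. The antibodies were used in separate stainings, so the same kind of cell can fall in a PDGFRA and in a GAL1 population. Each population was 1 bulk RNAseq library per tumor, 12 libraries in all, and no mouse without a tumor entered the comparison.

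Axon guidance proteins steer growing axons and migrating cells by attraction or repulsion. Semaphorins signal through plexins, often with a neuropilin as co-receptor, ephrins are membrane-bound ligands of the Eph receptor tyrosine kinases, Slits repel through Robo receptors, and netrins attract through DCC and repel through UNC5 proteins. Many of these genes also act outside the nervous system, in the branching of vessels, in immune cell contacts and in the movement of glial progenitors and tumor cells.

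Values are log2 CPM as deposited, with 3 libraries per population always listed in the order T3, T4, T5, and means are given ± SD (n = 3 tumors). Recovered reads per library ranged from 9851175 to 24117541, and 3 reads, taken as the floor of detection for counting error only, lay at a log2 CPM of −2.99 to −1.44. Differences were tested with limma over all 18180 genes with the tumor as a block, and a gene is called where its Benjamini-Hochberg adjusted p was under 0.05. Labels were checked on the sorted gene products and on cell type markers. *Pdgfra* was higher in PDGFRA+ than in PDGFRA- cells in 3 of 3 tumors but the ranges overlapped, and *Lgals1*, the gene of Galectin-1, was higher in every GAL1+ than in every GAL1- library. The PDGFRA- library of T5 stood apart from its group and lay among the GAL1+ libraries on the first principal component, at 82.4 against 63.8 to 120 in those libraries. Leukocyte RNA was present in all populations although the study describes the sorted cells as CD45-: *Ptprc*, which encodes CD45, was at 8.21 to 8.997 in GAL1+ and at 3.70 to 5.18 in GAL1- libraries.

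**Figure D1:**
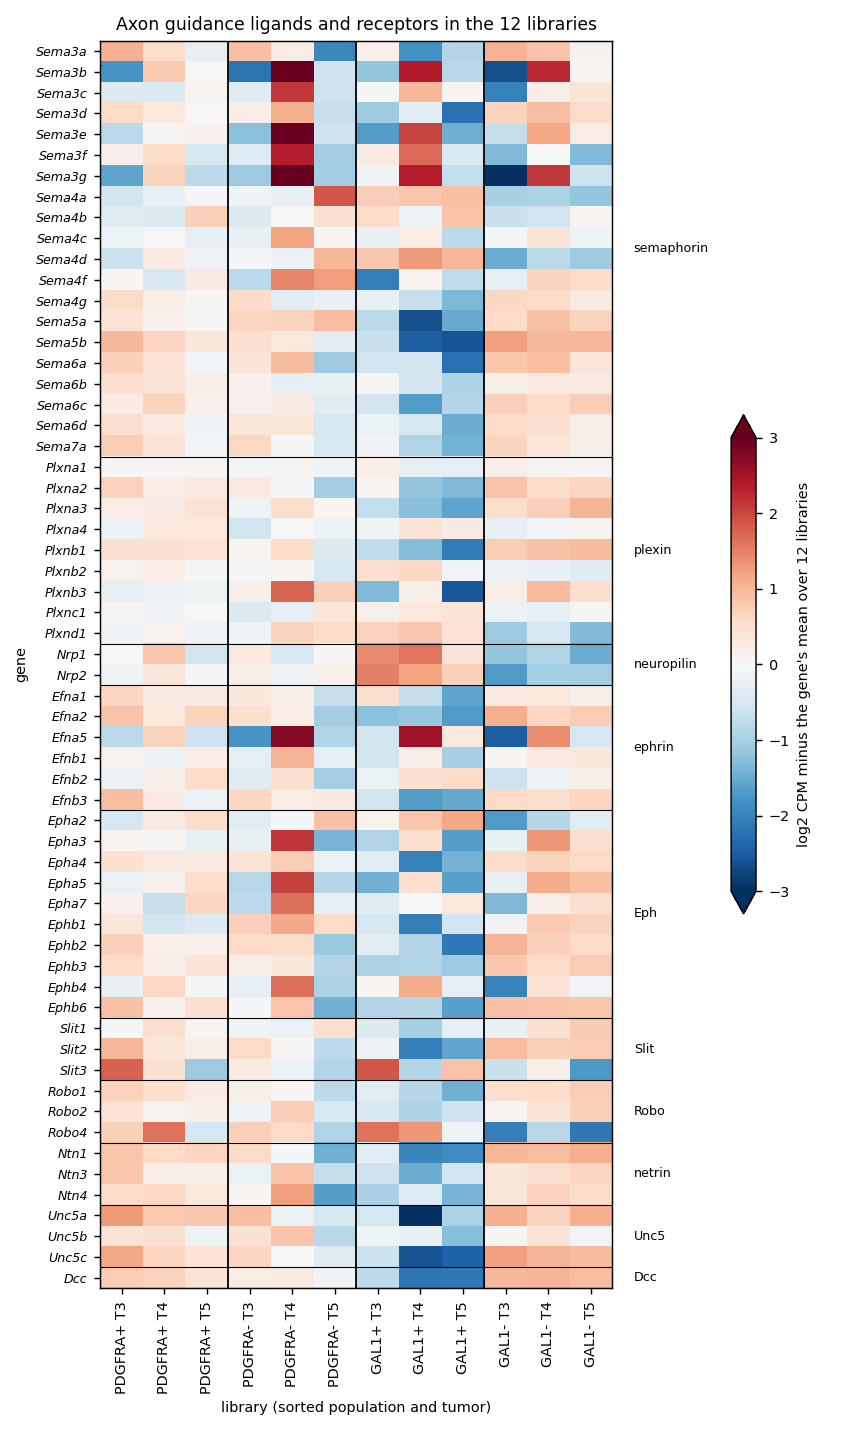
Heat map of the 60 members (rows, by family) in the 12 libraries (columns, by sorted population and tumor), coloured by log2 CPM minus the mean of that gene over the 12 libraries, with the scale cut at 3 in both directions. GAL1+ columns are mostly blue and GAL1- columns mostly red, *Nrp1*, *Nrp2*, *Sema4d* and *Epha2* run the other way, and the PDGFRA- column of T4 holds the highest value of 22 members.

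Most members were lowest in GAL1+ cells. The mean over 3 tumors was lowest in GAL1+ cells for 40 of 60 members (66.7%, against 43% of all genes) and highest in GAL1- cells for 30 (50%, against 39.5%). The order from GAL1- through PDGFRA+ and PDGFRA- down to GAL1+ cells held for 27 members (45%, against 26.2% of all genes). The opposite order was found for 8 members (13.3%, against 25.9%). These orders rank means only: for *Dcc* the means were 5.50 ± 0.05 for GAL1-, 5.14 ± 0.19 for PDGFRA+, 4.67 ± 0.21 for PDGFRA- and 2.82 ± 0.80 for GAL1+, and the neighbours PDGFRA+ and PDGFRA- were not called different (adjusted p = 0.516), although PDGFRA+ was higher in 3 of 3 tumors. In bulk libraries fewer cells of a type and less RNA per cell cannot be told apart.

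The comparison of GAL1+ with GAL1- cells set the populations sorted with and without Galectin-1 staining against each other. Of the 60 members, 45 were called, against 58.2% of all genes, and their directions were unequal. In GAL1+ cells 34 members were lower, against 29.3% of all genes, and 11 were higher, against 28.9% of all genes. The median log2 fold change of GAL1+ over GAL1- cells was −1.18 for the members and −0.03 for all genes. Of the ligands, 18 of 32 were lower and 4 higher, and of the receptors 16 of 28 were lower and 7 higher. Leaving out the PDGFRA- library of T5 gave 46 called members, 12 higher and 34 lower, and the share of all genes in that fit is not given here.

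Markers of other cell types moved with this comparison. All 12 pan-leukocyte markers were higher in GAL1+ cells, with a summed level of 11.4 to 11.9 (log2 CPM over the list) in GAL1+ and 6.56 to 7.88 in GAL1- libraries. All 10 endothelial markers were also higher, with summed levels of 8.51 to 8.84 and 5.49 to 6.65, and *Emcn* was at or under the floor in at least 1 GAL1- library. The 8 mural markers were higher too (8.02 to 8.40 against 4.88 to 5.80), with *Higd1b* at or under the floor in at least 1 GAL1- library. All 8 macrophage and all 9 microglia markers were higher as well, with median log2 fold changes of 5.66 and 4.52. All 8 markers of oligodendrocyte progenitor cells (OPC) were lower in GAL1+ cells, at 8.58 to 10.3 against 11.7 to 12.1. Lower too were 7 of 8 oligodendrocyte, 4 of 8 astrocyte and 3 of 7 neuron markers, and the others of these lists were not called. The part of these cell types in the differences of the guidance genes was not tested.

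**Figure D2:**
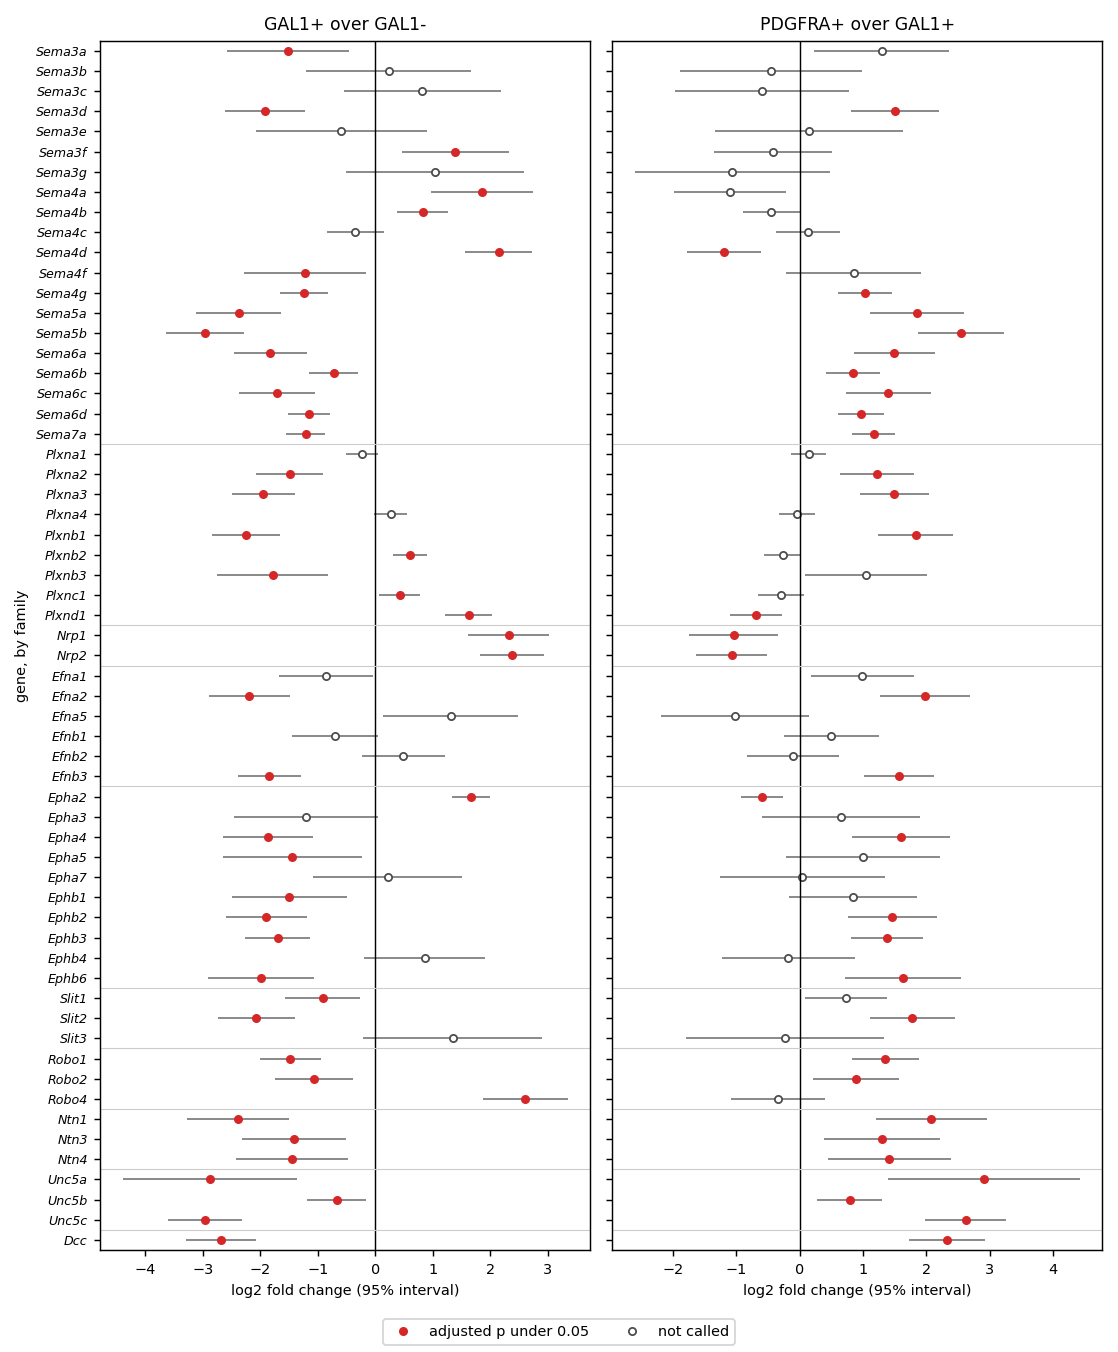
Log2 fold change (point) with its 95% interval (line) for each of the 60 members, by family, in GAL1+ over GAL1- cells (left) and PDGFRA+ over GAL1+ cells (right), from limma on 3 tumors. Filled points passed an adjusted p under 0.05; on the left 34 lie below 0 and 11 above, and on the right 28 lie above 0 and 5 below, and the panels share the GAL1+ libraries.

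Promoter sequence is given for the 2 leading members in each direction of this comparison that have an entry in the RefSeq promoter table (GRCm38.p6; the deposited values were made on mm39). The 250 bases before the annotated start are printed 5′ to 3′ on the gene's strand, with every CG dinucleotide in capitals. *Robo4* (chr9:37401722-37401971, + strand) and *Nrp2* (chr1:62703067-62703316, + strand) were higher in GAL1+ cells, and *Unc5c* (chr3:141465314-141465563, + strand) and *Sema5b* (chr16:35541112-35541361, + strand) were lower.
Robo4: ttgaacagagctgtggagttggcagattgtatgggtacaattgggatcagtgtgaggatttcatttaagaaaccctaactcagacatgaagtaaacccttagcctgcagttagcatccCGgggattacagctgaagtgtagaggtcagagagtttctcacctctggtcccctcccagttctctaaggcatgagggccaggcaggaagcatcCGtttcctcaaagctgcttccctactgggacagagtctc
Nrp2: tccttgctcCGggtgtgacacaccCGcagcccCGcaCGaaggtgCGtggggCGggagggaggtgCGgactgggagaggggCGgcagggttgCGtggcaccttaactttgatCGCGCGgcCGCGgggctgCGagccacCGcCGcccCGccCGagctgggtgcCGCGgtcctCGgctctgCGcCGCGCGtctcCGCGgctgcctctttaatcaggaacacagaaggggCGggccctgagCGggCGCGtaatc
Unc5c: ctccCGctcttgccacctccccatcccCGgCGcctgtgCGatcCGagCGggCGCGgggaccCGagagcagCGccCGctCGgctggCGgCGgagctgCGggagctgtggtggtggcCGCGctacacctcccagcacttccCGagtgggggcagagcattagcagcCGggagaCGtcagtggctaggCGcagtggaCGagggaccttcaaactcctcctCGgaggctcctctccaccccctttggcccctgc
Sema5b: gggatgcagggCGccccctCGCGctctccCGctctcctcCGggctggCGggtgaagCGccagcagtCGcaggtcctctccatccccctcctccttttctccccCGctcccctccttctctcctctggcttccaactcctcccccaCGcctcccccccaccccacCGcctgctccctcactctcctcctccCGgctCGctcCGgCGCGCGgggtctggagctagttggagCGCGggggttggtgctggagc
These windows held 2 CG dinucleotides in *Robo4*, 32 in *Nrp2*, 23 in *Unc5c* and 19 in *Sema5b*, so the pair of higher members spanned both extremes. Over the 51 members with an entry (66 windows), the median was 15.5 CG, against 6 over all 32851 windows. GAGGAA on either strand, a sequence with the GGAA core of ETS factor sites, was found in 27.3% of the members' windows and in 23.3% of all windows, and CAGCTG, an E-box that reads the same on both strands, in 13.6% and 13%. Of the printed windows, *Robo4* holds both motifs and the others hold neither. A match of letters is a description and not a binding site.

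The netrin system was the only one of the 4 systems with every member called in the same direction: all 7 members were lower in GAL1+ than in GAL1- cells. *Unc5c*, a repulsive netrin receptor, had a log2 CPM of 6.65, 6.44 and 6.37 in GAL1- and 4.77, 2.81 and 2.97 in GAL1+ cells, with 6.56, 6.05 and 5.81 in PDGFRA+ and 6.07, 5.41 and 5.01 in PDGFRA- cells. The GAL1+ libraries of T4 and T5 were lowest, and no GAL1+ library reached any other population. Its log2 fold change in GAL1+ over GAL1- cells was −2.97 (SE 0.29, adjusted p = 5.21e-05), a 7.83-fold lower level. *Dcc*, the attractive netrin receptor, was at 5.50, 5.56 and 5.45 in GAL1- and 3.75, 2.33 and 2.38 in GAL1+ cells, and at 5.29, 5.22 and 4.92 in PDGFRA+ and 4.77, 4.81 and 4.43 in PDGFRA- cells. T3 kept the highest *Dcc* of the GAL1+ libraries, as it did for *Unc5c*, and the groups did not overlap (log2 fold change −2.68, SE 0.27, adjusted p = 5.75e-05).

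Their ligand *Ntn1*, which encodes the secreted netrin-1, was at 7.09, 7.01 and 7.20 in GAL1- and 5.75, 4.14 and 4.24 in GAL1+ cells, and at 6.93, 6.71 and 6.74 in PDGFRA+ and 6.67, 6.06 and 4.65 in PDGFRA- cells. The PDGFRA- library of T5 stood with the GAL1+ libraries for *Ntn1*. The log2 fold change of GAL1+ over GAL1- cells was −2.39 (SE 0.39, adjusted p = 0.000683). *Unc5a*, a second repulsive receptor, was at 2.61, 2.22 and 2.62 in GAL1- and 1.03, −2.85 and 0.62 in GAL1+ cells, with 2.82, 2.35 and 2.37 in PDGFRA+ and 2.46, 1.35 and 1.07 in PDGFRA- cells. It rested on 1 to 34 recovered reads in GAL1+ cells, and the T4 library was under the floor of 3 reads. Its log2 fold change of −2.88 had the widest error of the system (SE 0.68, adjusted p = 0.00501). The other members, *Ntn3* (−1.41, adjusted p = 0.0138), *Ntn4* (−1.45, adjusted p = 0.0171), a laminin-like netrin of basement membranes, and *Unc5b* (−0.67, adjusted p = 0.0299), known from endothelial tip cells, fell less. *Unc5b* was called in 8 of 13 alternatives of the processing, and *Ntn3* and *Ntn4* in 12 and 11.

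In the Slit system 4 of 6 members were lower in GAL1+ cells and *Robo4* was higher. *Robo4*, a Robo receptor known from endothelial cells, was at 0.71, 1.92 and 0.62 in GAL1- and 4.39, 4.05 and 2.64 in GAL1+ cells, and at 3.46, 4.37 and 2.22 in PDGFRA+ and 3.47, 3.32 and 1.86 in PDGFRA- cells. It had the largest positive log2 fold change of the 60 members, 2.61 (SE 0.33, adjusted p = 0.00016). The T5 library was the lowest of its population for *Robo4* in all 4 populations. The mean of the 10 endothelial markers was also lowest in T5 in all 4 populations, at 3.88 in GAL1+ and 1.01 in GAL1- cells. In GAL1+ cells that mean was higher in T4 (4.96) than in T3 (4.80), while *Robo4* was lower in T4. In the other populations T3 and T4 stood in the same order for both. The part of endothelial cells in the level of *Robo4* was not tested. The repellent ligands *Slit2* (−2.07, adjusted p = 0.000335) and *Slit1* (−0.91, adjusted p = 0.0221) and the receptors *Robo1* (−1.48, adjusted p = 0.000561) and *Robo2* (−1.07, adjusted p = 0.013) were lower in GAL1+ cells. *Slit3* was not called (1.35, adjusted p = 0.124), and its levels ran from −1.72 to 1.88 over the 12 libraries.

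Semaphorins of classes 5 and 6 moved in the same direction, and those of classes 3 and 4 were mixed. Of the 20 semaphorins, 11 were lower and 4 higher in GAL1+ than in GAL1- cells, and both members of class 5 and all 4 of class 6 were lower. *Sema5b*, a transmembrane semaphorin with thrombospondin repeats, was at 6.38, 6.13 and 6.13 in GAL1- and 4.49, 2.70 and 2.57 in GAL1+ cells, and at 6.13, 5.79 and 5.48 in PDGFRA+ and 5.66, 5.47 and 4.84 in PDGFRA- cells. The groups did not overlap, with a log2 fold change of −2.96 (SE 0.30, adjusted p = 6.01e-05). *Sema5a* was at 5.82, 6.08 and 5.89 in GAL1- and 4.39, 2.57 and 3.69 in GAL1+ cells, and at 5.62, 5.34 and 5.25 in PDGFRA+ and 5.85, 5.87 and 6.14 in PDGFRA- cells. The PDGFRA- library of T5, the lowest of its population for *Dcc* and *Unc5c*, held the highest *Sema5a* of all. Its log2 fold change was −2.38 (SE 0.33, adjusted p = 0.000267). The class 6 members, transmembrane proteins that can act as ligand and receptor, were *Sema6a* (−1.83, adjusted p = 0.000504), *Sema6b* (−0.72, adjusted p = 0.00871), *Sema6c* (−1.71, adjusted p = 0.000916) and *Sema6d* (−1.16, adjusted p = 0.000273). *Sema7a* (−1.21, adjusted p = 0.000143), the member anchored by a lipid, was lower as well.

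Class 4 held members of both directions. *Sema4d*, also called CD100 and known from T cells, was at 7.30, 7.78 and 7.49 in GAL1+ and 5.01, 5.70 and 5.43 in GAL1- cells, with 5.85, 6.74 and 6.39 in PDGFRA+ and 6.44, 6.31 and 7.49 in PDGFRA- cells. The PDGFRA- library of T5 was within the GAL1+ range, and the log2 fold change of GAL1+ over GAL1- cells was 2.15 (SE 0.26, adjusted p = 0.000135). *Sema4a*, known from antigen-presenting cells, was at 4.56, 4.66 and 4.72 in GAL1+ and 2.84, 2.87 and 2.66 in GAL1- cells, and at 3.27, 3.57 and 3.79 in PDGFRA+ and 3.69, 3.59 and 5.68 in PDGFRA- cells. It was highest of all in the PDGFRA- library of T5, which also had the highest mean of the 12 pan-leukocyte markers in its population (7.54 against 6.21 and 5.43). The GAL1+ libraries of T4 and T5 had higher marker means (7.58 and 7.76) with lower *Sema4a*, and the part of leukocytes was not tested. The log2 fold change of *Sema4a* was 1.86 (SE 0.39, adjusted p = 0.00291), and *Sema4b* (0.82, adjusted p = 0.00632) was higher too. *Sema4g* (−1.24, adjusted p = 0.000426) and *Sema4f* (−1.23, adjusted p = 0.0484) were lower, with *Sema4f* called in only 4 of 13 alternatives, and *Sema4c* was not called (−0.34, adjusted p = 0.21).

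The secreted class 3 semaphorins were the least uniform. *Sema3a*, a repellent that binds NRP1, was lower in GAL1+ cells (−1.52, adjusted p = 0.02), as was *Sema3d* (−1.92, adjusted p = 0.000625), and *Sema3f* (1.40, adjusted p = 0.016), which binds NRP2, was higher. *Sema3b* (0.24, adjusted p = 0.771), *Sema3c* (0.82, 0.275), *Sema3e* (−0.59, 0.47) and *Sema3g* (1.04, 0.219) were not called, and their spread between tumors was wide, as described further on.

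Both neuropilins were higher in GAL1+ cells, in contrast to most guidance genes. *Nrp2*, a co-receptor for semaphorins and for vascular growth factors, was at 7.22, 6.89 and 6.43 in GAL1+ and 4.02, 4.69 and 4.68 in GAL1- cells, with 5.60, 6.08 and 5.65 in PDGFRA+ and 5.87, 5.55 and 5.83 in PDGFRA- cells between them. The GAL1+ and GAL1- ranges lay on either side of the PDGFRA populations without overlap, and the log2 fold change was 2.38 (SE 0.25, adjusted p = 6.55e-05). *Nrp1* was at 7.29, 7.49 and 6.26 in GAL1+ and 4.73, 4.97 and 4.38 in GAL1- cells, and at 5.88, 6.72 and 5.33 in PDGFRA+ and 6.17, 5.41 and 5.91 in PDGFRA- cells. Its log2 fold change was 2.32 (SE 0.31, adjusted p = 0.00022), a 5-fold higher level.

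Of the 9 plexins, 3 were higher in GAL1+ cells, 4 were lower and 2 were not called. *Plxnd1*, a receptor known from vessels that binds SEMA3E directly, was at 7.71, 7.83 and 7.46 in GAL1+ and 5.93, 6.50 and 5.69 in GAL1- cells, and at 6.91, 7.13 and 6.88 in PDGFRA+ and 6.89, 7.69 and 7.56 in PDGFRA- cells. The GAL1- libraries were lowest without overlap (log2 fold change 1.62, SE 0.18, adjusted p = 9.39e-05). *Plxnb2* (0.60, adjusted p = 0.00299) and *Plxnc1* (0.43, adjusted p = 0.0419), the receptor of SEMA7A, were higher by smaller amounts, and *Plxnc1* was called in 8 of 13 alternatives. *Plxnb1* (−2.25, adjusted p = 0.000112), the receptor of SEMA4D, *Plxnb3* (−1.79, adjusted p = 0.00583), which binds SEMA5A, *Plxna3* (−1.95, adjusted p = 0.000149) and *Plxna2* (−1.49, adjusted p = 0.00097) were lower. *Plxna1* (−0.23, adjusted p = 0.13) and *Plxna4* (0.27, adjusted p = 0.0929), co-receptors of the neuropilins, were not called.

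**Figure D3:**
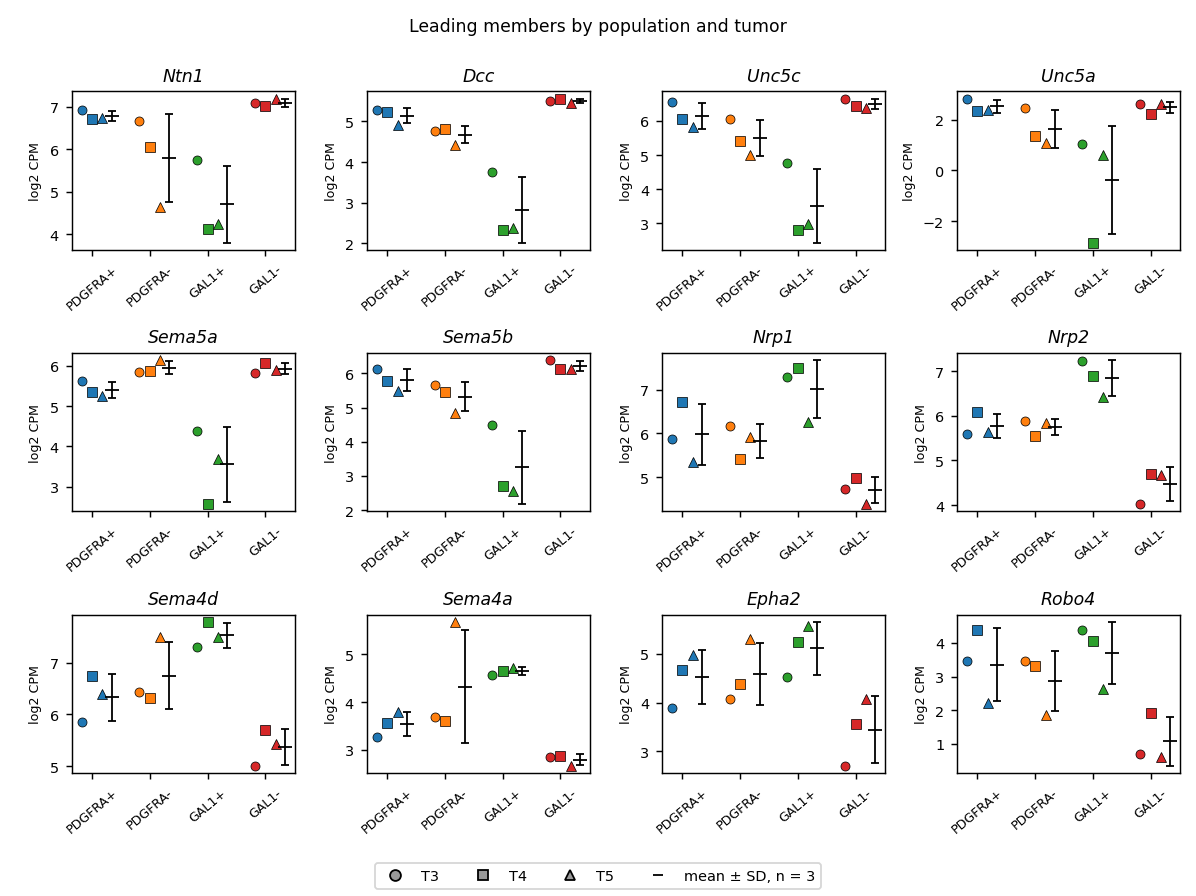
Log2 CPM of 12 leading members in the 4 populations, with 1 point per tumor (circle T3, square T4, triangle T5) and the mean ± SD (n = 3) beside them. The netrin genes and *Sema5a* and *Sema5b* are lowest in GAL1+ cells, and *Nrp1*, *Nrp2*, *Sema4d* and *Epha2* are lowest in GAL1- cells; vertical axes differ between panels and do not start at 0.

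In the ephrin system 8 of 16 members were lower in GAL1+ cells and *Epha2* alone was higher. *Epha2*, an Eph receptor often studied in GBM, was at 4.51, 5.23 and 5.57 in GAL1+ and 2.71, 3.55 and 4.07 in GAL1- cells, and at 3.90, 4.67 and 4.97 in PDGFRA+ and 4.08, 4.39 and 5.30 in PDGFRA- cells. In each of the 4 populations it was lowest in T3 and highest in T5. The log2 fold change of GAL1+ over GAL1- cells was 1.66 (SE 0.15, adjusted p = 4.34e-05), with the smallest adjusted p of the members. Of the other Eph receptors, *Ephb6* (−1.99, adjusted p = 0.00241), which lacks kinase activity, *Ephb2* (−1.90, adjusted p = 0.00069), *Epha4* (−1.87, adjusted p = 0.00137), *Ephb3* (−1.70, adjusted p = 0.000378), *Ephb1* (−1.49, adjusted p = 0.017) and *Epha5* (−1.44, adjusted p = 0.0432) were lower, and *Epha5* was called in 8 of 13 alternatives. *Epha3* (−1.21, adjusted p = 0.088), *Epha7* (0.21, 0.771) and *Ephb4* (0.86, 0.141) were not called.

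Among the ephrins, *Efna2*, a ligand anchored by a lipid, was at 3.13, 2.66 and 2.80 in GAL1- and 0.79, 0.90 and 0.32 in GAL1+ cells, and at 2.89, 2.35 and 2.71 in PDGFRA+ and 2.56, 2.26 and 0.98 in PDGFRA- cells. The GAL1+ libraries lay below all GAL1- and PDGFRA+ libraries, and the log2 fold change was −2.19 (SE 0.32, adjusted p = 0.000314). *Efnb3* (−1.84, adjusted p = 0.000205), a transmembrane ligand, was lower too. The other 4 were not called: *Efna1* (−0.85, adjusted p = 0.0696), *Efna5* (1.31, 0.0548), *Efnb1* (−0.70, 0.0984) and *Efnb2* (0.49, 0.221).

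Tumor T4 held the highest values of several secreted semaphorins. This pattern was chosen after the values were seen, and it was not tested. *Sema3g* was at 1.26, 3.51 and 2.06 for PDGFRA+, at 1.76, 6.77 and 1.79 for PDGFRA-, at 2.72, 5.19 and 2.11 for GAL1+ and at −0.29, 4.95 and 2.22 for GAL1- cells. *Sema3b* was at 1.71, 5.26 and 2.05 for GAL1+ and at 0.24, 5.11 and 2.96 for GAL1- cells, and at 1.11, 3.66 and 2.90 for PDGFRA+ and at 0.70, 6.65 and 2.26 for PDGFRA- cells. The middle value of each set, T4, was the highest of its population for both genes, and the difference to the mean of T3 and T5 was largest in PDGFRA- cells, at 4.996 for *Sema3g* and 5.17 for *Sema3b* on the log2 scale. *Sema3e* had its highest levels in T4 in 3 of 4 populations (2.02, 6.23 and 2.65 for PDGFRA-, 1.59, 5.31 and 1.81 for GAL1+ and 2.55, 4.42 and 3.50 for GAL1-), with PDGFRA+ cells at 2.47, 3.30 and 3.40. The ephrin *Efna5* was higher in T4 than the mean of T3 and T5 by 1.38 for PDGFRA+, by 4.09 for PDGFRA-, by 2.63 for GAL1+ and by 2.89 for GAL1- cells.

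In all, T4 was the highest tumor in all 4 populations for 8 members (13.3%, against 4.85% of all genes): *Efna5*, *Ephb4*, *Ntn4*, *Plxnd1*, *Sema3b*, *Sema3f*, *Sema3g* and *Sema4c*. T3 was the highest in all 4 populations for 8 members (13.3%, against 14.4%) and T5 for 2, *Epha2* and *Sema4b* (3.33%, against 9.41%). The PDGFRA- library of T4 held the highest of the 12 values for 22 members (36.7%, against 14.5% of all genes), among them *Plxnb3*, *Epha3*, *Epha5* and *Epha7*. That library was the shallowest, at 9851175 recovered reads. Its mean over 8 oligodendrocyte markers was 5.37, against 4.65 and 5.65 in the PDGFRA- libraries of T3 and T5, and the part of this cell type in the pattern was not tested.

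**Figure D4:**
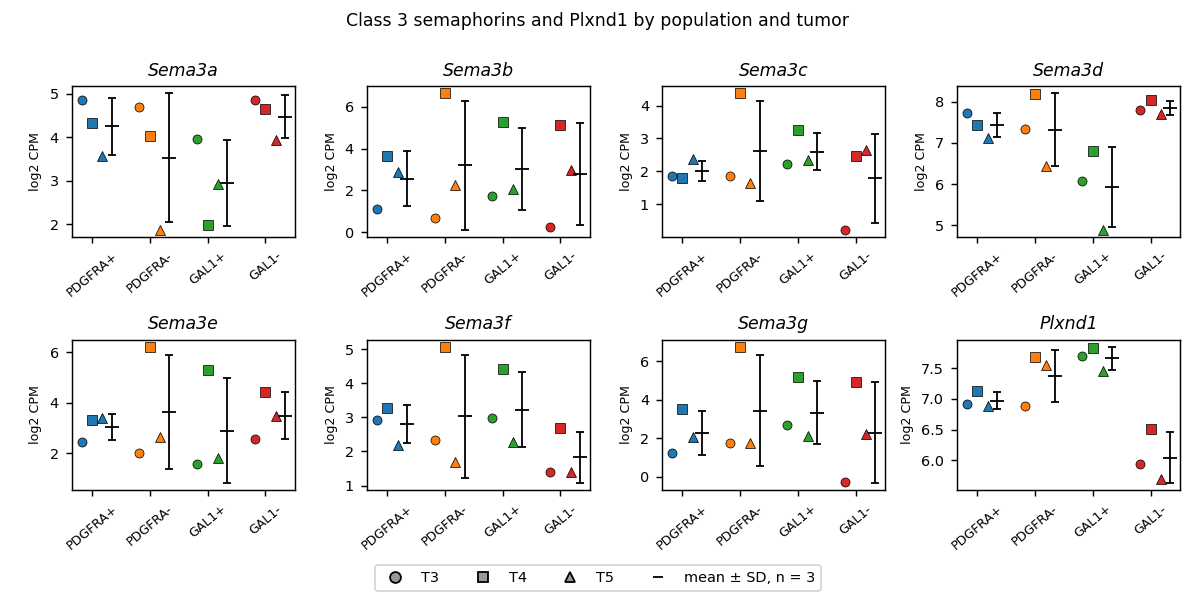
Log2 CPM of the 7 class 3 semaphorins and of *Plxnd1* in the 4 populations, with 1 point per tumor (circle T3, square T4, triangle T5) and the mean ± SD (n = 3). For *Sema3b*, *Sema3f* and *Sema3g* the square is the highest point in every population, which widens the SD; vertical axes differ between panels.

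The comparison of PDGFRA+ with GAL1+ cells set the 2 positively sorted populations against each other. Of the 60 members, 33 were called, against 38.0% of all genes. In PDGFRA+ cells 28 members were higher, against 20.9% of all genes, and 5 were lower, against 17.0% of all genes. The median of the PDGFRA+ over GAL1+ log2 fold changes was 0.87 for the members and 0.01 for all genes. This comparison shares the GAL1+ libraries with the previous one, so its directions are not a separate observation. Without T3 the count fell to 18 called members, 18 higher and 0 lower. The share of all genes called without T3 is not given here, so whether this fall is particular to the members cannot be told. Of the pan-leukocyte markers 12 of 12 and of the macrophage markers 8 of 8 were lower in PDGFRA+ cells. Lower too were 5 of 9 microglia, 1 of 10 endothelial and 1 of 8 mural markers. In PDGFRA+ cells 8 of 8 OPC, 4 of 8 astrocyte, 2 of 8 oligodendrocyte and 2 of 7 neuron markers were higher. The others of these lists were not called, and the part of these cell types in the result was not tested. Summed pan-leukocyte levels were 9.33 to 10.47 in PDGFRA+ and 11.4 to 11.9 in GAL1+ libraries.

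All 7 netrin system members were higher in PDGFRA+ than in GAL1+ cells. The leading log2 fold changes of the system were *Unc5a* (2.91, adjusted p = 0.00995), *Unc5c* (2.62, adjusted p = 0.00136), *Dcc* (2.32, adjusted p = 0.00136) and *Ntn1* (2.08, adjusted p = 0.00431), and the remainder were *Ntn4* (1.42, adjusted p = 0.0299), *Ntn3* (1.30, adjusted p = 0.0321) and *Unc5b* (0.79, adjusted p = 0.0251). Without T3 only *Unc5c*, *Dcc* and *Ntn1* of the 7 were called, and the adjusted p was 0.06397 for *Unc5a*, whose GAL1+ libraries held 1 to 34 reads, 0.187 for *Ntn3*, 0.204 for *Ntn4* and 0.107 for *Unc5b*. The semaphorins of class 5, *Sema5b* (2.55, adjusted p = 0.00136) and *Sema5a* (1.85, adjusted p = 0.00344), and the ephrin *Efna2* (1.98, adjusted p = 0.00223) were also higher. Of the members named in this paragraph, only *Unc5b* had PDGFRA+ and GAL1+ libraries that overlapped. The share of all genes without overlap is not given here.

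Class 6 was higher in PDGFRA+ cells as a whole, with *Sema6a* (1.49), *Sema6c* (1.40), *Sema6d* (0.97) and *Sema6b* (0.84) as log2 fold changes and adjusted p of 0.00449, 0.00685, 0.00267 and 0.00879. *Sema3d* (1.505, adjusted p = 0.00627), *Sema7a* (1.17, adjusted p = 0.00143) and *Sema4g* (1.03, adjusted p = 0.0037) were also higher. Among the plexins, *Plxnb1* (1.84, adjusted p = 0.00173), *Plxna3* (1.495, adjusted p = 0.00244) and *Plxna2* (1.22, adjusted p = 0.00721) were higher. In the ephrin system, *Ephb6* (1.63, adjusted p = 0.0134), *Epha4* (1.60, adjusted p = 0.00755), *Efnb3* (1.57, adjusted p = 0.00211), *Ephb2* (1.46, adjusted p = 0.00715) and *Ephb3* (1.37, adjusted p = 0.00383) were higher. *Slit2* (1.78, adjusted p = 0.00277), *Robo1* (1.35, adjusted p = 0.00308) and *Robo2* (0.89, adjusted p = 0.0434) completed the higher members, and *Robo2* was called in 6 of 13 alternatives. Without T3 *Sema3d*, *Sema6a*, *Ephb2*, *Ephb3*, *Ephb6* and *Robo2* were not called.

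The 5 members lower in PDGFRA+ than in GAL1+ cells were *Sema4d* (−1.20, adjusted p = 0.0078), *Nrp2* (−1.08, adjusted p = 0.00966), *Nrp1* (−1.04, adjusted p = 0.028), *Plxnd1* (−0.69, adjusted p = 0.017) and *Epha2* (−0.59, adjusted p = 0.0127). *Sema4d* differed in the same direction in 3 of 3 tumors, with the PDGFRA+ libraries below every GAL1+ library. None of the 5 was called without T3. The endothelial receptor *Robo4*, which led the comparison of GAL1 populations, was not called here (−0.34, 95% interval −1.09 to 0.40, adjusted p = 0.437), and *Sema4a* was just short of the threshold (−1.10, adjusted p = 0.0513).

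The members not called in this comparison were 27. They were *Efna1*, *Efna5*, *Efnb1*, *Efnb2*, *Epha3*, *Epha5*, *Epha7*, *Ephb1*, *Ephb4*, *Plxna1*, *Plxna4*, *Plxnb2*, *Plxnb3*, *Plxnc1*, *Robo4*, *Slit1*, *Slit3*, *Sema3a*, *Sema3b*, *Sema3c*, *Sema3e*, *Sema3f*, *Sema3g*, *Sema4a*, *Sema4b*, *Sema4c* and *Sema4f*. Intervals for the most variable of them were wide, such as −2.61 to 0.48 for *Sema3g*, and narrow for *Plxna1* (−0.13 to 0.41).

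Between PDGFRA+ and PDGFRA- cells no member was called, against 0% of all genes. At an unadjusted p under 0.05 there were 8 of 60 members, close to the share of all genes at that threshold (11.8%). That count does not set the members apart from other genes. The median log2 fold change was 0.147 for the members and −0.0192 for all genes. That median was 0.0336 without the PDGFRA- library of T5, 0.0413 without tumor T5 and 0.455 without T4. The 8 are described with their values and without a call. *Ntn1* was at 6.93, 6.71 and 6.74 in PDGFRA+ and 6.67, 6.06 and 4.65 in PDGFRA- cells (log2 fold change 1.00, unadjusted p = 0.0307, adjusted p = 0.384). *Efna2* was at 2.89, 2.35 and 2.71 and 2.56, 2.26 and 0.98 (0.72, unadjusted p = 0.0478), and in both genes the PDGFRA- library of T5 was the lowest. *Plxna2* was at 6.99, 6.52 and 6.59 in PDGFRA+ and 6.58, 6.23 and 5.24 in PDGFRA- cells (0.68, unadjusted p = 0.0269). *Robo1* was at 5.13, 4.91 and 4.69 and 4.61, 4.51 and 3.66 (0.65, unadjusted p = 0.0207), and its groups did not overlap. *Sema6b* was at 4.60, 4.47 and 4.30 and 4.22, 3.79 and 3.87 (0.49, unadjusted p = 0.0272), and *Plxna4* at 4.20, 4.70 and 4.71 and 3.79, 4.40 and 4.20 (0.40, unadjusted p = 0.00973).

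Lower in PDGFRA+ cells at that threshold were *Plxnb3*, at 6.27, 6.37 and 6.39 in PDGFRA+ and 6.70, 8.27 and 7.26 in PDGFRA- cells (−1.07, unadjusted p = 0.0337), and *Ephb1*, at 2.41, 1.49 and 1.63 and 2.75, 3.19 and 2.62 (−1.01, unadjusted p = 0.0493). For both genes every PDGFRA- library was above every PDGFRA+ library. All 8 oligodendrocyte markers were also lower in PDGFRA+ cells at an unadjusted p under 0.05, with a median log2 fold change of −1.84 and summed levels of 8.43 to 8.77 in PDGFRA+ and 9.72 to 10.2 in PDGFRA- libraries, and their part in these differences was not tested. A missed threshold does not show that the populations are alike: the 95% interval of *Nrp2* was −0.54 to 0.58 and that of *Sema3g* −2.71 to 0.39.

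Ligands and their receptors were compared over 28 known pairs of 20 ligands and 22 receptors. In GAL1+ against GAL1- cells both partners were lower in 10 pairs, both were higher in 1, they moved in opposite directions in 3, only 1 partner was called in 11 and none in 3. The pair that was higher on both sides was *Sema3f* and *Nrp2*. In the opposite pairs, *Sema3a* was lower with its receptor *Nrp1* higher, *Sema7a* was lower with *Plxnc1* higher, and *Sema4d* was higher with *Plxnb1* lower. The 10 pairs with both partners lower included *Ntn1* with *Dcc*, *Unc5b* and *Unc5c*, *Ntn4* with *Unc5b*, *Slit2* with *Robo1* and *Robo2*, *Slit1* with *Robo1*, *Sema5a* with *Plxnb3*, *Sema6a* with *Plxna2*, and *Efnb3* with *Epha4*. In PDGFRA+ against GAL1+ cells both partners were higher in 8 pairs, and *Sema4d* with *Plxnb1* was the only pair in opposite directions (*Sema4d* lower and *Plxnb1* higher in PDGFRA+ cells). Pairs that share a ligand or a receptor are not independent of each other. Of all members, 56.7% were lower in GAL1+ than in GAL1- cells and 46.7% were higher in PDGFRA+ than in GAL1+ cells. Pairs with both partners in that direction can therefore be frequent under any pairing of members, and whether partners move together was not tested.

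**Figure D5:**
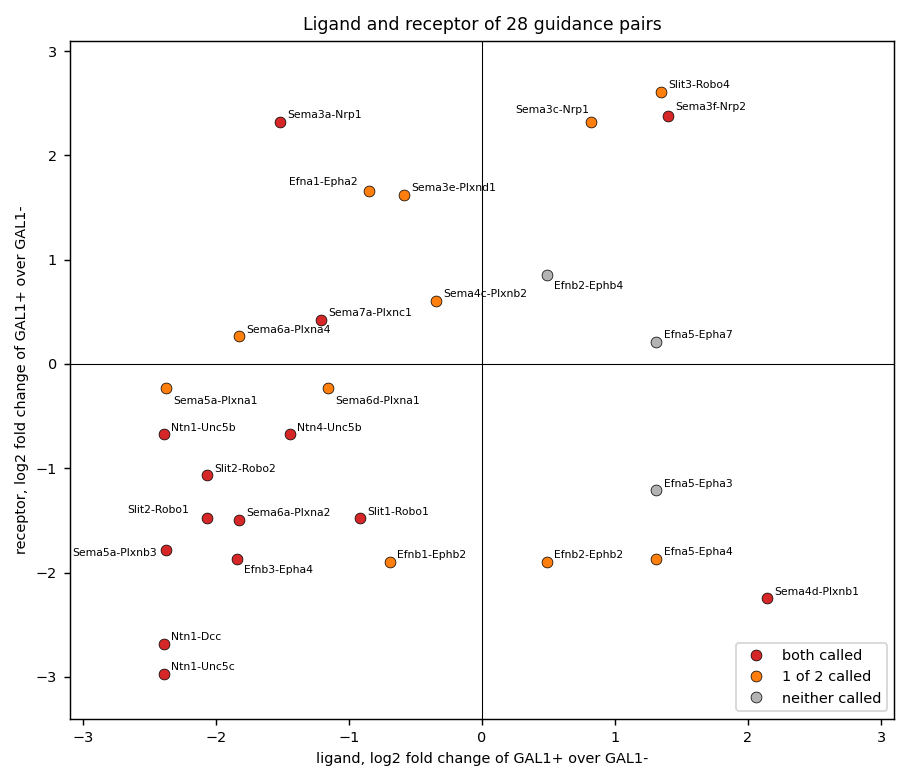
Log2 fold change of GAL1+ over GAL1- cells for the ligand (horizontal) and the receptor (vertical) of 28 known pairs, 1 point per pair, coloured by how many of the 2 partners had an adjusted p under 0.05. The 10 pairs with both partners lower lie at the lower left, *Sema4d* with *Plxnb1* at the lower right and *Sema3a* with *Nrp1* at the upper left.

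Other genes of the same pathways, listed by function, are given for comparison. Of 25 measured guidance factors outside the member families, 16 were lower (64%, against 29.3% of all genes) and 3 higher (12%, against 28.9%) in GAL1+ than in GAL1- cells. The leading lower genes were *Dscaml1* (−3.03, adjusted p = 9.63e-05), *Cntn1* (−2.96, adjusted p = 0.000147) and *Dscam* (−2.93, adjusted p = 0.00014), which encode neural cell adhesion molecules. The 3 higher genes were *Adam10* (1.67, adjusted p = 4.27e-05) and *Adam17* (1.67, adjusted p = 4.85e-05), proteases that shed cell surface proteins, and *Rgmb* (1.54, adjusted p = 0.00216), a repulsive guidance molecule. In PDGFRA+ over GAL1+ cells 14 of these factors were higher (56%, against 20.9% of all genes), led by *Dscaml1* (2.63), *Cntn1* (2.63) and *Dscam* (2.54), and 3 were lower (12%, against 17.0%), *Rgmb* (−1.11), *Adam17* (−1.04) and *Adam10* (−0.90).

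Of 61 genes listed as downstream effectors, 30 were lower (49.2%, against 29.3% of all genes) and 18 higher (29.5%, against 28.9%) in GAL1+ than in GAL1- cells. The list takes in related proteins, such as *Plxdc1*, that are not shown here to act downstream of a guidance receptor. *Dpysl4* (−3.15, adjusted p = 9.9e-05) and *Crmp1* (−2.79, adjusted p = 0.000757), collapsin response mediators of semaphorin signals, and *Gap43* (−2.53, adjusted p = 0.000136), a growth cone protein, led the lower genes. *Plxdc1* (4.82, adjusted p = 4.55e-05), a plexin domain protein known from tumor vessels, *Fes* (4.25, adjusted p = 7.26e-05), a tyrosine kinase of myeloid cells, and *Vasp* (1.76, adjusted p = 0.000101), an actin regulator, led the higher genes. In PDGFRA+ over GAL1+ cells 28 effectors were higher (45.9%, against 20.9% of all genes), led by *Dpysl4* (2.64), *Crmp1* (2.36) and *Enah* (2.06), and 10 were lower (16.4%, against 17.0%), led by *Fes* (−1.52), *Plxdc1* (−1.38) and *Vasp* (−0.91). No gene of either list was called between PDGFRA+ and PDGFRA- cells, where 9 of the 25 factors and 7 of the 61 effectors had an unadjusted p under 0.05, against 11.8% of all genes.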

How the data were processed

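RNA from 4 populations sorted out of 3 tumors was made into libraries with a stranded total RNA kit. The authors trimmed reads with fastp, aligned them with STAR to mm39, counted exon reads with featureCounts (reads with several positions as fractions), kept genes with more than 1 CPM in at least 3 samples and normalized with TMM and voom; tool versions are not given in the sources used here. The deposited values are log2 CPM for 18180 genes and 12 libraries, with an offset of 0.5 reads. Genes that share sequence or overlap are counted with that ambiguity. Part of the genotype is not reported here.

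A model with population and tumor was fitted to all genes and libraries with limma 3.58.1 in R 4.3.3, using its trended prior (3.49 prior and 6 residual degrees of freedom), and p-values were adjusted by Benjamini-Hochberg over all genes. Libraries of a tumor are paired, since the labels number the tumor: libraries of the same tumor deviated together from their population means (mean correlation across genes 0.486, 18 pairs, from 0.140 to 0.662). To recover reads, each library's minimum was set to 0 reads; 41.4% to 59.2% of recovered values were whole within 0.01 reads, so the count test was not run. The authors' voom weights were not used here. Voom weights on recovered reads were an alternative.

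The members, marker lists, pathway lists and pairs were chosen with earlier results of these data known. Every member is named, and values in every library are given for up to 6 leading called members in each direction with the same sign in 3 tumors and for up to 6 members in each direction at an unadjusted p under 0.05 between PDGFRA populations. Of each pathway list, up to 3 called genes in each direction are named with their fold changes. The fit was tested on simulated data. RefSeq promoters are from GRCm38.p6. Figures were drawn with matplotlib 3.10.9.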

Additional observations from a re-analysis of the deposited data

How the results depend on the processing

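Counts of called members in GAL1+ against GAL1- cells were 36 to 46 under the alternatives (45 as reported), both ends from leaving out a tumor or the PDGFRA- library of T5. In PDGFRA+ against GAL1+ cells leaving out a tumor or that library gave 18 to 35 called members (33 as reported), with 18 without T3, and without the tumor block (no replicate block, so without the pairing) 22 members were called, 20 higher and 2 lower, against 37 without it in the GAL1 comparison and 0 between PDGFRA populations. At an unadjusted p under 0.05, 8 of 60 members passed between PDGFRA populations, close to the share of all genes (11.8%). Of the called members, 31 of 45 in the GAL1 comparison and 14 of 33 in PDGFRA+ against GAL1+ cells were called under all 13 alternatives, and no called member changed sign. The shares of all genes called under these alternatives are not given here, so these counts do not set the members apart from other genes. The medians over the members kept their sign under every alternative run, and the median between PDGFRA populations ranged from 0.0336 to 0.455 (0.147 as reported).

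Values that changed sign belong to members that were not called, and the cause was not tested. Leaving out a tumor gave −0.17 to 0.41 for *Epha7* and −0.38 to 0.81 for *Sema3b* in GAL1+ over GAL1- cells, with the sign changed without T3. In PDGFRA+ over GAL1+ cells it gave −0.19 to 0.42 for *Epha7*, −0.56 to 1.23 for *Sema3e*, −0.0814 to 0.32 for *Sema4c*, −1.10 to 0.13 for *Sema3b*, −1.02 to 0.62 for *Slit3* and −0.17 to 0.0049 for *Efnb2*. There median centring, which moved the median of all genes to −0.15, gave −0.12 for *Epha7*, −0.017 for *Plxna1*, −0.0064 for *Sema3e* and −0.0266 for *Sema4c*, quantile normalization gave −0.13 for *Epha7*, and voom weights gave −0.37 for *Sema3e*. With a filter at a log2 CPM above 1 in 3 samples *Slit3* was not tested. The 3 tumors and the depth of the libraries limit precision, most for genes near the floor such as *Unc5a*.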
